A study of Mus musculus with 6 samples.

Results

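The constitutive proteasome was followed here through the 42 protein-coding genes of the deposited table, out of 34866 genes in all, whose symbols begin with Psma, Psmb, Psmc, Psmd or Psme and a digit, with the immunoproteasome genes Psmb8, Psmb9 and Psmb10 left out. They comprise 8 core alpha genes, 8 core beta genes, 20 cap genes, 5 activator genes and Psmc3ip, which carries the prefix but encodes a meiotic recombination factor and not a subunit. RNA was taken from live effector memory CD4+ T cells, which are helper cells that have met antigen before, after sorting from spleens of mice. One group lacked Il1rn, the gene of the interleukin-1 receptor antagonist (Il1rnKO 1, 2 and 3), and the other was wild type (WT 1, 2 and 3), with 3 libraries in each. The labels used here give neither the allele, strain, sex or age of the mice nor whether a library came from 1 animal or a pool, and p-values therefore reflect no more than the variation among these 6 samples, part of which may be technical.

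The proteasome is the protease that degrades proteins tagged with ubiquitin. Its core is a barrel: outer rings of alpha subunits form the gate, and inner rings of beta subunits hold the active sites, which in the constitutive form are Psmb5 (chymotrypsin-like), Psmb6 (caspase-like) and Psmb7 (trypsin-like). A regulatory cap binds the ubiquitin chain, removes it and threads the substrate into the barrel by means of the Psmc ATPases, while Psme activators open the gate without ubiquitin. Lymphocytes also make the immunoproteasome, in which Psmb8, Psmb9 and Psmb10 take the places of Psmb5, Psmb6 and Psmb7, and T cells need proteasome activity for activation and growth.

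Upstream sequences are shown for the catalytic core genes in the RefSeq table (Psmb5 and Psmb6), and for genes at the ends of the variation between libraries described below. These are Psmb3, the core gene of widest range after Psmb5 and Psmb7, and the cap genes Psmd2, Psmc4 and Psmd11, the 3 of narrowest range. Each is the 100 bases before the gene's start in RefSeq on GRCm38.p6, written 5′ to 3′ along the gene. Capitals mark TGACNNNGC (the antioxidant response element bound by NRF1 and NRF2 with small MAF partners), CCAAT (the box bound by NF-Y) and CCGGAAG (an ETS-type element), on either strand, and the Psmc4 stretch holds none of them. The windows are chr14:54617996-54618095 (minus strand) for Psmb5, chr11:70525257-70525356 (plus) for Psmb6, chr11:97703334-97703433 (plus) for Psmb3, chr16:20651552-20651651 (plus) for Psmd2, chr7:28050093-28050192 (minus) for Psmc4 and chr11:80428515-80428614 (plus) for Psmd11.
Psmb5: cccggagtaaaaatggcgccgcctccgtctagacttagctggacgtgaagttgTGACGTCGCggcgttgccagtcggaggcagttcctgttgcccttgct
Psmb6: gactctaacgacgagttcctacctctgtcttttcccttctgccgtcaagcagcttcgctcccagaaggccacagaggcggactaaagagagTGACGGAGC
Psmb3: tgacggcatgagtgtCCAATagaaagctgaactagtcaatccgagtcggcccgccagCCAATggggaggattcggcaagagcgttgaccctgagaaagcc
Psmd2: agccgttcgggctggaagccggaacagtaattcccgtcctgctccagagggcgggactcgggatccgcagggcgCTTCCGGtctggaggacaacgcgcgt
Psmc4: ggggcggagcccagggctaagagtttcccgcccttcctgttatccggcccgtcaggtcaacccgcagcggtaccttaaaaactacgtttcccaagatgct
Psmd11: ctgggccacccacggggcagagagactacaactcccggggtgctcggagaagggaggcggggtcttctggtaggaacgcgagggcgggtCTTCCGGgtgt

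RefSeq windows of 300 bases (250 before the start and 50 after it) were found for 34 of the 41 subunit genes, 37 windows in all. CCGGAAG was found for 9 of 17 cap genes, 1 of 12 core genes (Psma6) and 2 of 5 activator genes, and it is present in 8.86% of all 32851 windows in the RefSeq table. TGACNNNGC was found for 6 subunit genes (Psmb5, Psmb6, Psmc6, Psmd9, Psmd12 and Psme4), 16.2% of the member windows against 12.4% of all windows. CCAAT was found for 13 subunit genes, 35.1% of member windows against 37.4% of all windows, 7 of the 13 being core genes. The looser TGANNNNGC, which contains TGACNNNGC, was in 56.8% of member windows against 41.3% of all, and the stricter TGACTCAGC, which both contain, was in no member window. Of the other motifs searched, CACGTG matched 3 genes, TTCNNNGAA 1 and GGAAATCCC none, against 7.15%, 8.30% and 0.323% of all windows. The SBS motif, known as the element bound by the factor STAF, matched 2 cap genes, Psmd10 and Psmd11, 5.41% of member windows against 0.950% of all, and it is not capitalised in the Psmd11 stretch. The motifs were chosen with the data known, both strands were read, and a match in letters describes a sequence and not a binding site.

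Across the series, library totals lay between 14102183 and 17677217 counts, and 13374 genes were tested. Il1rn itself had 1, 3 and 1 counts in Il1rnKO 1, 2 and 3 and 6, 10 and 0 counts in WT 1, 2 and 3, a level at which the genotype labels cannot be checked. All 7 T cell markers were present, with summed levels of 4488 to 4705 CPM (the usual count unit, scaled to a common library total) in Il1rnKO libraries and 3949 to 4543 CPM in WT libraries. The 10 neutrophil markers summed to 40.3 to 108 CPM in Il1rnKO libraries and 3.90 to 7.35 CPM in WT libraries, with Ngp at 0 in all WT libraries and Elane at 0 outside Il1rnKO 1. B cell, CD8, NK cell, erythroid and macrophage or dendritic cell lists each summed to at most 22.6 CPM in any library. The macrophage or dendritic cell list summed to 17.1 to 22.6 CPM in Il1rnKO and 5.32 to 13.2 CPM in WT libraries. For CD8 these ranges were 5.23 to 7.15 CPM in Il1rnKO and 3.62 to 5.03 CPM in WT. Erythroid markers had 5.65 to 9.24 CPM in Il1rnKO and 3.12 to 5.09 CPM in WT, and the B cell and NK cell ranges overlapped between the groups. Ccr7, a marker of naive and central memory T cells, averaged 131 ± 32.3 CPM in Il1rnKO and 210.1 ± 67.5 CPM in WT (SD, n = 3 each), with an adjusted p of 0.988 by edgeR. The part of such other cells in the values below was not tested. In sorted bulk cells, fewer cells of a type and less RNA per cell cannot be told apart.

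No proteasome gene passed the test between Il1rnKO and WT cells. By edgeR's quasi-likelihood test with Benjamini-Hochberg adjustment over all tested genes, 0 of 41 tested members had an adjusted p under 0.05, against 0.0523% of all tested genes (7 of 13374; 0.0299% higher and 0.0224% lower in Il1rnKO). None of the members had an unadjusted p under 0.05 either, against 4.08% of all tested genes, and DESeq2 and limma voom also called none. The smallest unadjusted p among members was 0.33, for Psmd10. The 95% interval of the log2 fold change lay within a 2-fold change in either direction for 39 of 40 tested subunits (the exception was Psmb11) and within a 1.5-fold change for 24 of them. Fold changes below are Il1rnKO over WT, CPM values of single genes are scaled with TMM factors, and adjusted p-values come from that edgeR test.

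**Figure D1:**
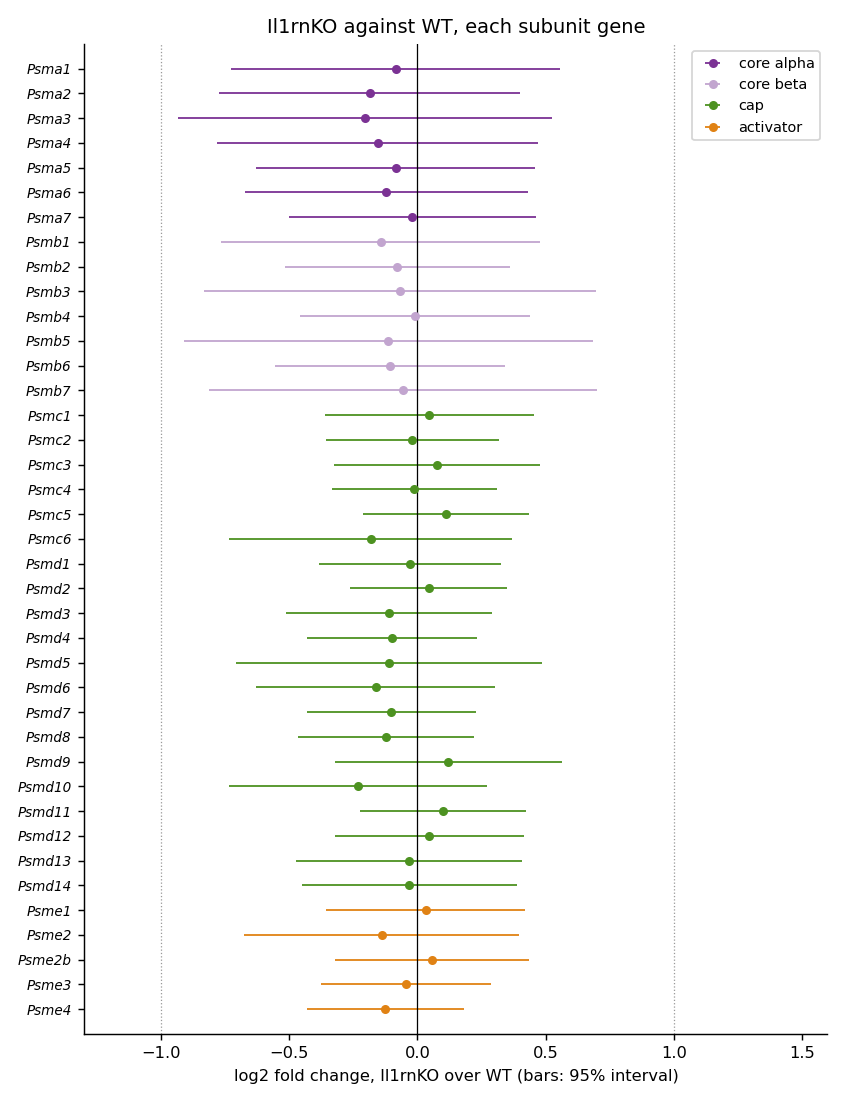
Log2 fold change of each subunit gene, Il1rnKO over WT, on the x axis, with edgeR's 95% interval as bars, coloured by class; Psmb11, whose interval runs from -2.96 to 1.21, is left out. All 39 intervals include 0 and stay between the dotted lines at a 2-fold change.

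Core alpha subunits, which build the gated outer rings, had log2 fold changes between -0.20 (Psma3) and -0.02 (Psma7), with a median of -0.12 against 0.02 over all tested genes. Psma3 (ENSMUSG00000060073.9, chromosome 12, 70974621 to 70996347, GRCm38) was at 52.5, 51.8 and 102 CPM in Il1rnKO 1, 2 and 3 and at 63.9, 54.4 and 119.7 CPM in WT 1, 2 and 3. Both groups thus held a pair of lower libraries and 1 higher library, number 3 in each, and the ranges overlapped. The edgeR estimate was -0.20 on the log2 scale (SE 0.33), with an adjusted p of 0.988. Psma2 (ENSMUSG00000015671.11, chromosome 13, 14613240 to 14674236) was at 95.1, 95.6 and 173 CPM in Il1rnKO 1, 2 and 3 and at 101, 135 and 177 CPM in WT 1, 2 and 3, again highest in the libraries numbered 3. The other tested alpha genes had log2 fold changes of -0.15 for Psma4, -0.12 for Psma6, -0.09 for Psma5 and -0.08 for Psma1. Psma8, the alpha subunit of the testis proteasome, had 0 counts in all 6 libraries, which allows at most 0.170 to 0.213 CPM on plain library totals, without TMM factors (3 counts per library, counting error only), and was not tested.

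All 15 tested core genes had negative fold changes in edgeR with TMM factors, against 47.4% of all tested genes. On the length-scaled levels described below, with exon lengths, only Psma3 and Psmb11 of the 15 had a lower mean in Il1rnKO. Psma6 had 175 ± 20.6 in Il1rnKO and 168 ± 11.9 in WT, and Psmb4 188 ± 9.73 and 164 ± 3.81 in that order (SD, n = 3 each). With the longest coding transcript, Psma2 and Psmb1 were lower as well. The sign in edgeR also turned for many of the 15 when certain single libraries were left out. Without WT 3 all 7 alpha genes had positive fold changes (median 0.10), and without Il1rnKO 2 they were 4 of 7 (median 0.03) and the beta genes 7 of 8 (median 0.08). Without Il1rnKO 1 the sign was positive for 4 of 7 alpha genes and 4 of 8 beta genes. All 15 stayed negative, with larger medians, in other fits. The medians were -0.23 for alpha and -0.26 for beta genes without WT 1, -0.20 and -0.17 in that order without WT 2, -0.30 and -0.26 with limma voom and quality weights, and -0.16 for both with the replicate block. Without both libraries numbered 3 they were -0.23 for alpha and -0.29 for beta genes. By edgeR 2 of 41 members there, both beta genes, were lower at an unadjusted p under 0.05, against 760 of all 13753 genes tested. Leaving out Il1rnKO 3 alone gave -0.49 for alpha and -0.47 for beta genes. In that fit 10 of 41 members had an unadjusted p under 0.05, all lower in Il1rnKO, against 7.92% of the 14026 genes tested there, and the smallest adjusted p of a member was 0.194 by edgeR.

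The catalytic beta subunits spread as widely within each group as between the groups. Psmb5 (ENSMUSG00000022193.7, chromosome 14, 54614119 to 54618022) was at 13.9, 7.55 and 21.5 CPM in Il1rnKO 1, 2 and 3 and at 14.8, 11.2 and 20.6 CPM in WT 1, 2 and 3. The group means were 14.3 ± 6.98 CPM in Il1rnKO and 15.5 ± 4.73 CPM in WT (SD, n = 3 each), which edgeR put at -0.11 on the log2 scale (SE 0.36) with an adjusted p of 0.992. Library 3 was the highest of its group in both. Psmb7 (ENSMUSG00000026750.6, chromosome 2, 38588036 to 38644087) was at 50.7, 44.1 and 120.5 CPM in Il1rnKO 1, 2 and 3 and at 58.1, 72.7 and 93.3 CPM in WT 1, 2 and 3. Its log2 fold change was -0.06 (SE 0.34), and Il1rnKO 3 exceeded every other library. Psmb6 (ENSMUSG00000018286.6, chromosome 11, 70525367 to 70527858) was at 56.2, 42.5 and 64.7 CPM in Il1rnKO 1, 2 and 3 and at 45.8, 65.7 and 64.7 CPM in WT 1, 2 and 3. For this subunit WT 2 was the highest library by a small margin, and edgeR gave -0.11 on the log2 scale (SE 0.20) with an adjusted p of 0.988.

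Among the noncatalytic beta genes Psmb1, Psmb2, Psmb3 and Psmb4, log2 fold changes ran from -0.14 for Psmb1 to -0.01 for Psmb4. Psmb1, the most abundant of them in CPM, was at 118, 113 and 242 CPM in Il1rnKO 1, 2 and 3 and at 146, 163 and 215 CPM in WT 1, 2 and 3. Psmb11, the catalytic subunit of the thymic epithelial proteasome, had 9, 15 and 2 counts in Il1rnKO 1, 2 and 3 and 7, 26 and 12 counts in WT 1, 2 and 3. These few counts gave a log2 fold change of -0.87 with an SE of 0.94. The beta median was -0.09 with Psmb11 and -0.08 without it.

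Cap genes had fold changes on both sides of 0, with 7 of 20 positive and 13 negative and a median log2 fold change of -0.03. Among the ATPases, Psmc5 (ENSMUSG00000020708.12, chromosome 11, 106256154 to 106263120) was at 61.9, 58.0 and 70.5 CPM in Il1rnKO 1, 2 and 3 and at 58.8, 61.9 and 55.6 CPM in WT 1, 2 and 3. Its level was narrow in both groups, with a log2 fold change of 0.11 (SE 0.15, 95% interval -0.21 to 0.44). Psmc6 (ENSMUSG00000021832.8, chromosome 14, 45329788 to 45349705) was at 70.1, 58.8 and 116 CPM in Il1rnKO 1, 2 and 3 and at 76.7, 87.6 and 114 CPM in WT 1, 2 and 3, the pattern of the core genes with both libraries numbered 3 at the top. In edgeR its log2 value was -0.18 (SE 0.25), at an adjusted p of 0.988. The remaining ATPases Psmc1, Psmc2, Psmc3 and Psmc4 had log2 fold changes from -0.02 for Psmc2 to 0.07 for Psmc3.

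Of the non-ATPase cap genes, those of smallest p were Psmd10, which encodes the assembly chaperone gankyrin, and Psmd8, a subunit of the lid. Psmd10 (ENSMUSG00000031429.14, chromosome X, 140948429 to 140956728) was at 18.2, 18.7 and 28.1 CPM in Il1rnKO 1, 2 and 3 and at 20.4, 26.0 and 30.1 CPM in WT 1, 2 and 3, a log2 fold change of -0.23 (SE 0.23). Psmd8 (ENSMUSG00000030591.17, chromosome 7, 29174188 to 29180701) was at 77.6, 73.4 and 98.8 CPM in Il1rnKO 1, 2 and 3 and at 91.9, 88.1 and 92.2 CPM in WT 1, 2 and 3, a log2 fold change of -0.12 (SE 0.16). In both genes the Il1rnKO range overlapped the WT range through Il1rnKO 3. Psmd14, the lid enzyme that cuts the ubiquitin chain from the substrate, averaged 59.4 ± 13.2 CPM in Il1rnKO and 60.8 ± 8.94 CPM in WT (SD, n = 3 each). Psmd4, a ubiquitin receptor, averaged 102 ± 3.63 CPM in Il1rnKO and 109 ± 15.7 CPM in WT, and Psmd2, the large scaffold that docks ubiquitin shuttles, 141 ± 8.83 CPM in Il1rnKO and 137 ± 10.8 CPM in WT (SD, n = 3 each). The largest positive value in the class was 0.12 (SE 0.20), for the chaperone gene Psmd9.

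Activator genes had a median log2 fold change of -0.04. Psme1 (ENSMUSG00000022216.17, chromosome 14, 55578123 to 55581529) and Psme2 (ENSMUSG00000079197.10, chromosome 14, 55587441 to 55591113) encode partners in an interferon-inducible activator ring. Psme1 was at 216, 197 and 286 CPM in Il1rnKO 1, 2 and 3 and at 218, 211 and 255 CPM in WT 1, 2 and 3, a log2 fold change of 0.03 (SE 0.17). Psme2 was at 153, 150.1 and 264 CPM in Il1rnKO 1, 2 and 3 and at 171, 193 and 261 CPM in WT 1, 2 and 3, with a log2 fold change of -0.14 (SE 0.24). For both genes library 3 was the highest of each group. Psme3 (ENSMUSG00000078652.9, chromosome 11, 101316213 to 101323537), the nuclear activator, was at 109, 104 and 126 CPM in Il1rnKO 1, 2 and 3 and at 113, 131 and 106 CPM in WT 1, 2 and 3, a log2 fold change of -0.04 (SE 0.15). Psme4 (ENSMUSG00000040850.17, chromosome 11, 30771726 to 30880361), the large single-chain activator, was at 82.2, 87.1 and 81.7 CPM in Il1rnKO 1, 2 and 3 and at 97.7, 91.8 and 84.4 CPM in WT 1, 2 and 3. It differed least between libraries of the class, and its log2 fold change of -0.13 (SE 0.14) did not pass (adjusted p = 0.988 by edgeR). Psme2b, a copy named after Psme2, averaged 53.1 ± 5.39 CPM in Il1rnKO and 51.0 ± 8.80 CPM in WT (SD, n = 3 each).

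On TMM-scaled CPM 1 member, Psmc3ip, had ranges that did not overlap between the groups, against 9.42% of all tested genes (5.77% higher and 3.65% lower in Il1rnKO). It was at 2.43, 1.85 and 2.66 CPM in Il1rnKO 1, 2 and 3 and at 2.74, 3.03 and 2.86 CPM in WT 1, 2 and 3, from 29 to 50 counts a library. In edgeR its difference was -0.31 on the log2 scale (SE 0.47), at an adjusted p of 0.988. This gene shares 385 exonic bases with Mlx on the opposite strand, and Mlx had 5191 counts over the 6 libraries against 252 for Psmc3ip. The result depends on the scale. On length-scaled levels with exon lengths, described below, some subunits had ranges apart and higher in Il1rnKO. Psmc3 was at 124 to 135 in Il1rnKO and 99.2 to 113 in WT, and Psmb4 at 177 to 197 and 160 to 168 in that order. The share of all genes apart on that scale was not computed.

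Proteasome transcripts differed more from library to library in the core than in the cap or activator genes. The ratio of the highest to the lowest of the 6 libraries had a median of 2.05 over the 14 core genes without Psmb11, 1.41 over the 20 cap genes and 1.42 over the 5 activator genes, against 1.51 over the 8634 tested genes of at least 10 CPM. It reached at least 1.5 in 14 of 14 core genes, 7 of 20 cap genes and 1 of 5 activator genes, and in 51.0% of those 8634 genes. Il1rnKO 3 or WT 3 was the highest library for 13 of 14 core genes, 17 of 20 cap genes and 3 of 5 activator genes, against 39.1% of the 8634 genes. Psmb5 had the widest range, 2.85-fold, followed by Psmb7 (2.73-fold) and Psmb3 (2.54-fold), and Psmd2 the narrowest, 1.15-fold. The 7 cap genes with a range of at least 1.5-fold were Psmc1, Psmc6, Psmd3, Psmd5, Psmd6, Psmd10 and Psmd13.

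**Figure D2:**
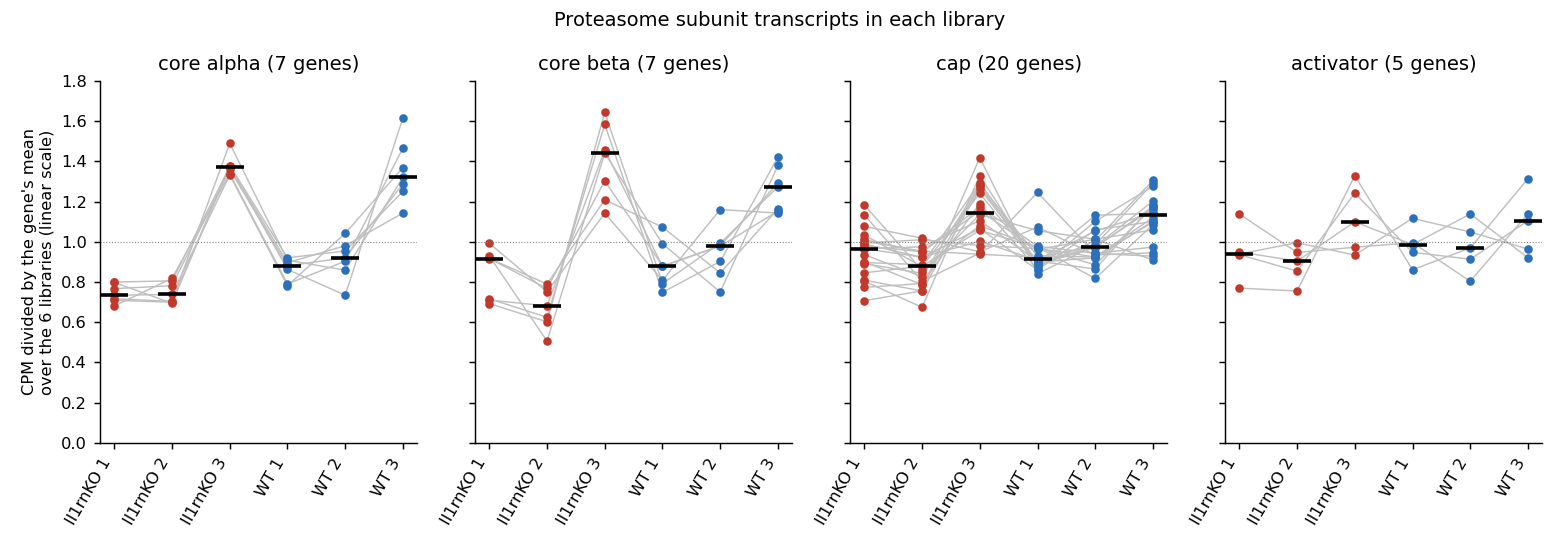
CPM of each subunit gene divided by its own mean over the 6 libraries (y axis, linear), for each library (x axis), with a grey line per gene and a black bar at the median of the class; Psmb11 is left out. Core alpha medians are 1.37 in Il1rnKO 3 and 1.32 in WT 3 and between 0.734 and 0.921 in the other 4 libraries, while cap medians stay between 0.878 and 1.14.

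Core alpha genes moved as a block. Relative to each gene's mean over the 6 libraries, the class median was 0.734, 0.739 and 1.37 in Il1rnKO 1, 2 and 3 and 0.881, 0.921 and 1.32 in WT 1, 2 and 3. Core beta genes without Psmb11 had 0.917, 0.682 and 1.44 in Il1rnKO 1, 2 and 3 and 0.878, 0.978 and 1.27 in WT 1, 2 and 3. Cap genes had 0.966, 0.878 and 1.14 in Il1rnKO 1, 2 and 3 and 0.915, 0.974 and 1.13 in WT 1, 2 and 3, the same high libraries with smaller steps.

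As a share of all counts, core alpha genes took 0.0501, 0.0526 and 0.0817% in Il1rnKO 1, 2 and 3 and 0.0559, 0.0563 and 0.0781% in WT 1, 2 and 3. Core beta genes took 0.0473, 0.0422 and 0.0733% in Il1rnKO 1, 2 and 3 and 0.0488, 0.0516 and 0.0635% in WT 1, 2 and 3. Cap genes were steadier, at 0.146, 0.1399 and 0.154% in Il1rnKO 1, 2 and 3 and 0.142, 0.134 and 0.146% in WT 1, 2 and 3. Activator genes took 0.0648 to 0.0760% in Il1rnKO libraries and 0.0640 to 0.0702% in WT libraries. All 41 subunit genes together averaged 0.331 ± 0.0466% in Il1rnKO and 0.326 ± 0.0281% in WT with plain totals, but 0.324 ± 0.0751% in Il1rnKO and 0.338 ± 0.0460% in WT with TMM-scaled totals (SD, n = 3 each). The activator means turned likewise, from the higher in Il1rnKO with plain totals (0.0689% in Il1rnKO, 0.0671% in WT) to the lower with TMM-scaled totals (0.0672% in Il1rnKO, 0.0695% in WT).

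**Figure D3:**
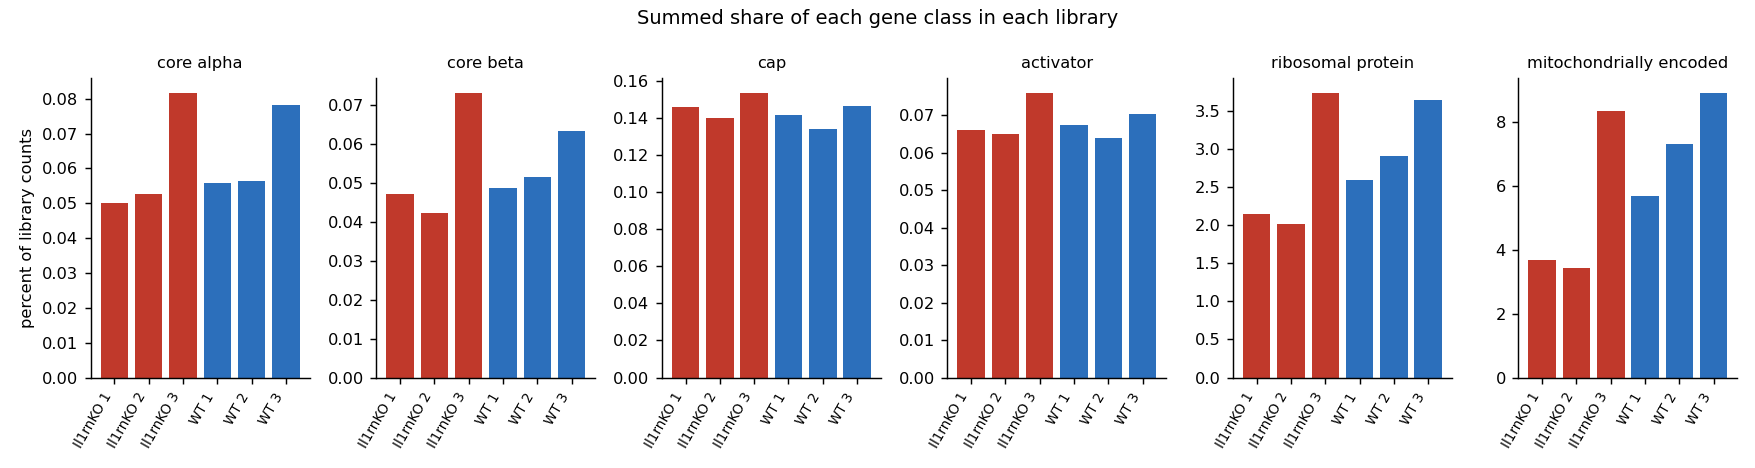
Percent of library counts (y axis, from 0, a scale of its own in each panel) in each library (x axis). Panels show each proteasome class, 49 ribosomal protein genes and 13 mitochondrially encoded genes. The 49 are large-subunit (Rpl) genes only. Il1rnKO 3 and WT 3 have the highest bars in every panel, with smaller steps in the cap and activator panels.

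Other transcript classes moved with the core genes. Mitochondrially encoded transcripts took 3.69, 3.44 and 8.34% of counts in Il1rnKO 1, 2 and 3 and 5.68, 7.32 and 8.92% in WT 1, 2 and 3. Transcripts of 49 large-subunit ribosomal protein (Rpl) genes took 2.15, 2.01 and 3.74% in Il1rnKO 1, 2 and 3 and 2.60, 2.90 and 3.64% in WT 1, 2 and 3. Small-subunit (Rps) genes were not in that sum. Neutrophil markers were highest in Il1rnKO 3 (108 CPM) and lowest in WT 3 (3.90 CPM). Transcripts of the core were short: the longest coding transcript had a median of 1201 bases for alpha genes and 1029.5 bases for beta genes, against 1887 bases for cap genes and 1112 for activator genes. Subunits with transcripts under 1500 bases had a median ratio of highest to lowest library of 1.71 (18 genes) and longer ones 1.45 (21 genes), and over all protein-coding genes of at least 10 CPM these medians were 1.78 (1053 genes) and 1.48 (7397 genes). What part the mitochondrial share, the Rpl share, neutrophil transcripts or transcript length has in the pattern of the core genes was not tested.

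Levels of different subunits were compared per length, as counts per kilobase of all annotated exons of a gene, scaled to the same sum in each library. On this length-scaled level, averaged over the 6 libraries, the 7 alpha genes ran from 52.0 ± 11.7 (Psma3) to 171 ± 15.6 (Psma6), and the 7 beta genes from 45.6 ± 10.9 (Psmb5) to 176 ± 14.5 (Psmb4; SD, n = 6). Psmb7 had 58.2 ± 12.6, and the levels of Psmb1, Psmb2, Psmb3 and Psmb6 lay from 85.1 ± 10.3 (Psmb6) to 99.3 ± 12.9 (Psmb1). ATPases ran from 47.2 ± 7.03 (Psmc2) to 130 ± 14.3 (Psmc1), and the non-ATPase cap genes from 8.28 ± 1.95 for the chaperone gene Psmd9 to 108 ± 19.4 for the ubiquitin receptor Psmd4. Psme1 (296 ± 34.2) and Psme2 (312 ± 25.0) had the highest length-scaled levels of all members, and Psme4 had 30.2 ± 6.58. Psme1 was above Psme2 in Il1rnKO 1, Il1rnKO 2 and WT 1, and below it in Il1rnKO 3, WT 2 and WT 3.

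The order depended on the length used. With the longest coding transcript in place of all annotated exons, 4 of 7 alpha genes and 5 of 8 beta genes changed rank. Psma7 then led the alpha genes with a length-scaled level of 209 ± 17.5, and Psma3 stayed lowest with 53.4 ± 12.7. Psmb4 (217 ± 16.6) and Psmb3 (209 ± 48.6) led the beta genes, while Psmb5 stayed lowest of those 7 with 34.2 ± 8.42 (SD, n = 6 each). Psmb3 was above Psmb4 in Il1rnKO 3 and WT 3 and below it in the other libraries. Psme1 and Psme2 kept the highest values of all members under both lengths.

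**Figure D4:**
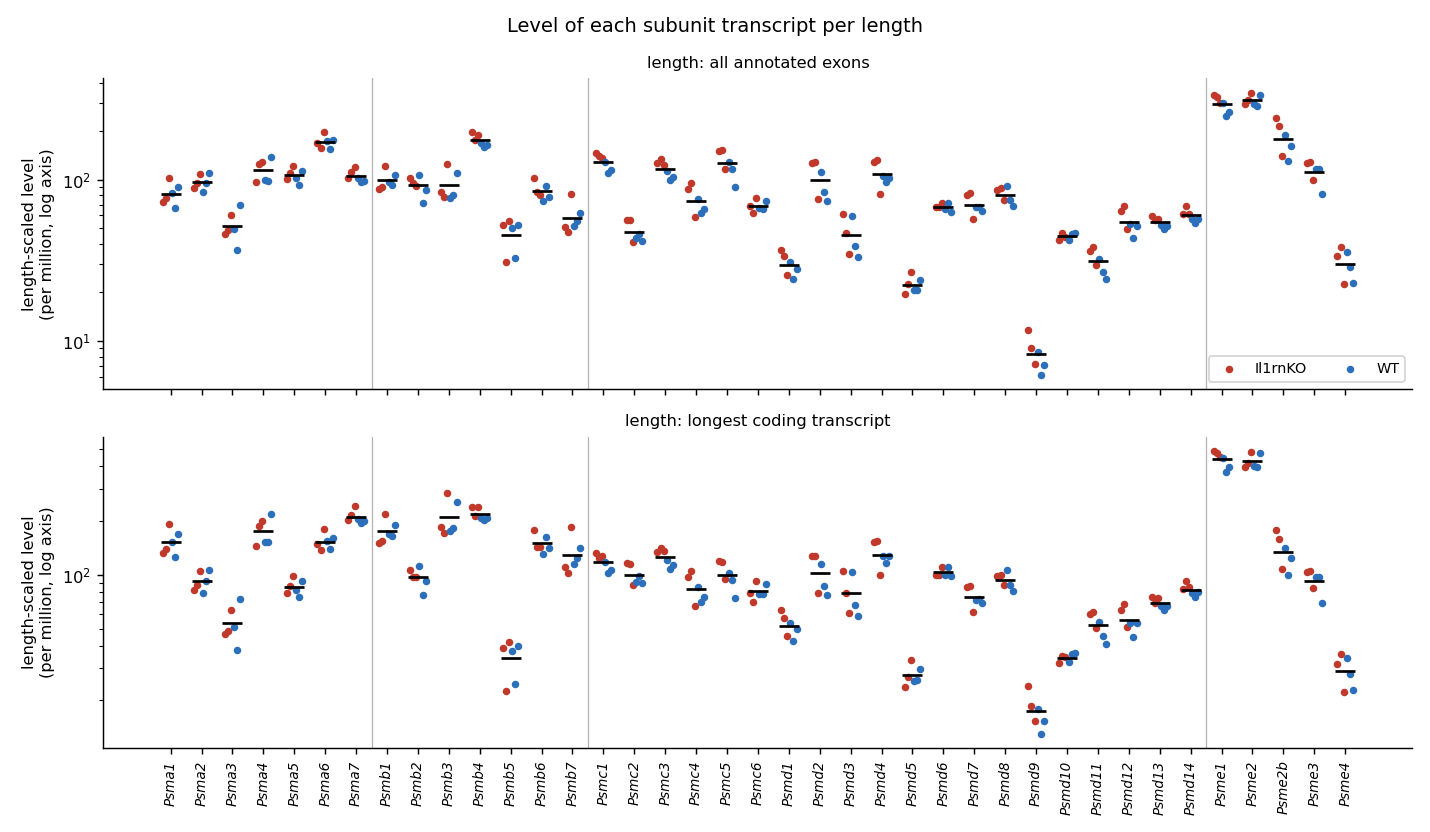
Length-scaled level of each subunit transcript (y axis, log scale) in each library, coloured by group with a black bar at the mean of the 6 libraries, with the length of all annotated exons (top) and of the longest coding transcript (bottom); vertical lines part core alpha, core beta, cap and activator genes. Psme1 and Psme2 are highest and Psmd9 lowest in both panels, and Psmb5 is the lowest core beta gene shown.

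Psmb5 was outnumbered by its immunoproteasome counterpart Psmb8 in every library. The length-scaled ratio of Psmb5 to Psmb8 was 0.186, 0.107 and 0.238 in Il1rnKO 1, 2 and 3 and 0.203, 0.179 and 0.245 in WT 1, 2 and 3, and with the longest coding transcript 0.0514 to 0.115 in Il1rnKO and 0.0861 to 0.118 in WT. The ratio of Psmb6 to Psmb9 was 0.880, 0.736 and 0.765 in Il1rnKO 1, 2 and 3 and 0.593, 1.14 and 0.758 in WT 1, 2 and 3, so that Psmb6 exceeded Psmb9 in WT 2 alone, and in no library with the longest coding transcript, where the ratio in WT 2 was 0.986. For Psmb7 to Psmb10 the ratio was 0.292, 0.321 and 0.426 in Il1rnKO 1, 2 and 3 and 0.340, 0.457 and 0.422 in WT 1, 2 and 3, but 0.663 to 0.966 in Il1rnKO and 0.771 to 1.04 in WT with the longest coding transcript. Among the 3 pairs the deficit of the constitutive subunit was therefore deepest for Psmb5 under both lengths.

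These ratios were not shown to differ by genotype. The mean log2 ratio was -2.57 ± 0.59 in Il1rnKO and -2.27 ± 0.23 in WT for Psmb5 to Psmb8, -0.34 ± 0.14 in Il1rnKO and -0.32 ± 0.47 in WT for Psmb6 to Psmb9, and -1.55 ± 0.28 in Il1rnKO and -1.31 ± 0.22 in WT for Psmb7 to Psmb10 (SD, n = 3 each, exon lengths). Exact two-sided permutation tests over the 6 libraries gave p of 0.6, 0.9 and 0.3 in that order, each 0.9 when adjusted over the 3 pairs, in a design whose smallest possible p is 0.1. The difference between genotypes does not depend on the length used.

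**Figure D5:**
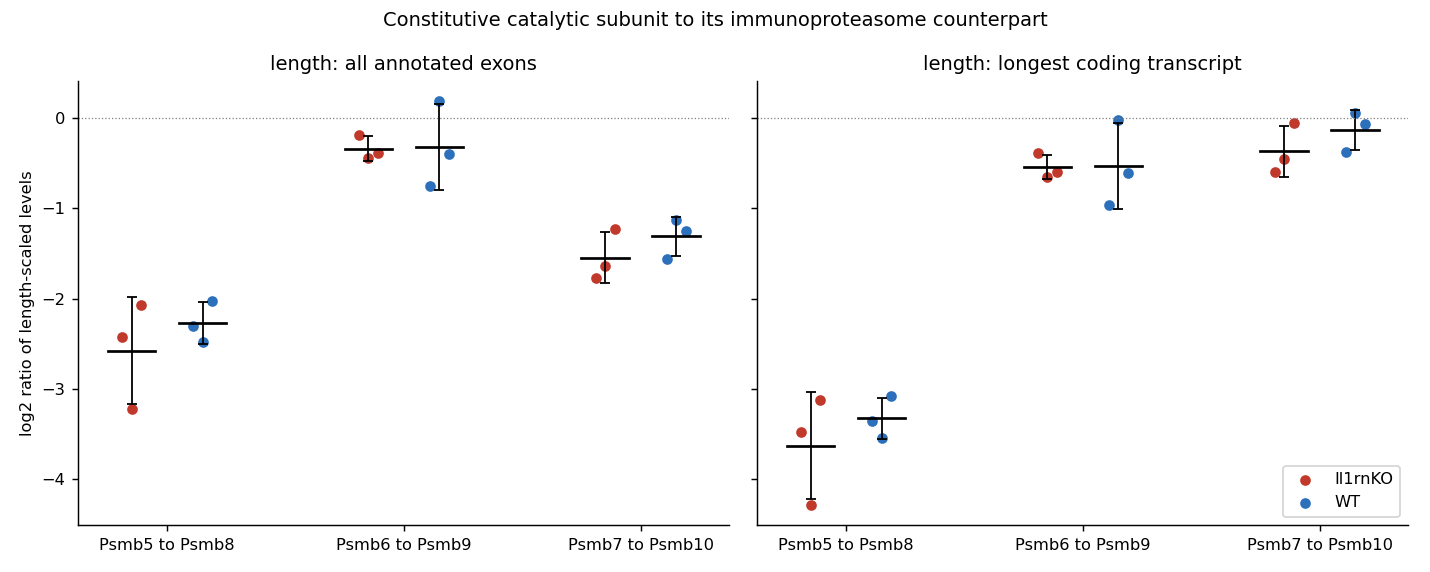
Log2 ratio of the length-scaled level of each constitutive catalytic subunit to that of its immunoproteasome counterpart (y axis), for each Il1rnKO and WT library, with bars at the mean ± SD (n = 3 per group). Points for Psmb5 to Psmb8 lie below -2 in all libraries under both lengths, and the groups overlap in every pair.

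Genes that build, regulate or feed the proteasome did not pass the test either. Of 8 assembly factors and inhibitors 0 passed the edgeR test over all tested genes in either direction, with 3 positive and 5 negative fold changes and a median log2 fold change of -0.15. Txnl1, a thioredoxin bound to the cap, was the one gene of these lists with an unadjusted p under 0.05, with 45.0 ± 11.9 CPM in Il1rnKO and 61.2 ± 5.41 CPM in WT (SD, n = 3 each) and a difference in edgeR of -0.44 on the log2 scale (SE 0.20), at an adjusted p of 0.988. The proteasome inhibitor of that list, Psmf1, stood at -0.21 on the log2 scale (SE 0.18). Not one of 7 further cap subunits and cap-bound enzymes passed (3 positive, 4 negative, median -0.08), among them the deubiquitinase Uchl5 with -0.23 (SE 0.20) and the ubiquitin ligase Ube3c with -0.14 (SE 0.15).

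The 8 regulators of proteasome genes had no call, with 4 fold changes positive and 4 negative and a median of -0.04. Nfe2l1, which encodes the factor NRF1 that raises proteasome gene transcription when proteasome activity is short, was at 109, 89.1 and 99.3 CPM in Il1rnKO 1, 2 and 3 and at 111, 85.0 and 89.8 CPM in WT 1, 2 and 3. Foxo3 had a log2 fold change of -0.25 (SE 0.15), and Ngly1, the glycanase that processes NRF1, had -0.29 (SE 0.25). In the list of ubiquitin supply and delivery 0 of 15 genes passed, 5 positive and 10 negative (median -0.13), with the shuttle genes Ubqln2 at -0.46 (SE 0.24) and Rad23b at -0.30 (SE 0.17).

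Some values may hold reads of other genes, because the library kit marks strand, per the labels' protocols, but no source used here says whether counting used it. Psmb7 overlaps Nek6, Psmd13 overlaps Sirt3 and Psmc3 overlaps Slc39a13 on the opposite strand, by 405, 342 and 215 exonic bases. These partners had 665 counts against 6997 for Psmb7, 569 against 6307 for Psmd13 and 2192 against 10397 for Psmc3, over the 6 libraries. Psmb9, the divisor in the ratio of Psmb6 to Psmb9, overlaps Tap1 on the opposite strand by 212 exonic bases, so that ratio carries the same doubt. Psme2b shares 41 exonic bases with 9930111J21Rik1 on its own strand, which had 16369 counts against 5052, and reads of Psme2b may also have been divided with Psme2, so its value is uncertain. Annotated pseudogenes of Psmb5, Psmb6 and Psmb7 (4 in all) had 0 counts in every library, and 101 of the 252 values of the members carried decimals, a sign of counts divided by an estimate.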

How the data were processed

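RNA-seq of effector memory CD4+ T cells from 3 Il1rnKO and 3 WT mice or pools was analysed. Estimated counts for each gene, unscaled, were deposited by the authors, and 20.7% of the values have decimals. The submitters' processing notes name GRCm38. For the aligner, the counting program and the strand setting, the sources used here give nothing; the kit was directional and reads were 150-base pairs, per the labels' protocols. Estimated counts were rounded. Of 34866 identifiers, 34652 matched GENCODE M21 (same build) without the version, and 214 did not. The genotype comparison used edgeR 4.0.16 (R 4.3.3) with TMM factors, filterByExpr (minimum count 10, minimum total 15), two-sided quasi-likelihood test, Benjamini-Hochberg over 13374 genes, threshold 0.05. Intervals use the SE and each gene's residual plus prior degrees of freedom. Library totals of 14102183 to 17677217 counts set the precision; floors cover counting error only.

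Named were the catalytic and activator genes, the 2 of smallest p in each class, members past the threshold or without overlapping ranges, and the 2 of smallest p per pathway list; others were chosen after their values were seen. Members and lists were chosen with earlier results of these data known. The labels do not say whether replicate numbers pair the libraries, and the main test did not take them to do so. Fits were tested on simulated data. Alternatives were RLE and upper-quartile factors, other filters, a replicate block, DESeq2 1.42.0, limma 3.58.1 voom with quality weights and each library left out; leaving out both libraries numbered 3 was added after seeing the data.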

Additional observations from a re-analysis of the deposited data

How the results depend on the processing

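The count of 0 proteasome genes called held in the 14 alternative fits, while the count over all tested genes, 7, was 58 with no filter, 22 with DESeq2, 11 with limma voom and 3 to 10 with a library left out: 4 without Il1rnKO 1, Il1rnKO 2 or WT 2, 3 without WT 1 or WT 3, and 10 without Il1rnKO 3. Same-numbered libraries deviated together with correlations over genes of 0.108, 0.0530 and 0.116, and each library correlated best with its own number. These correlations cannot decide whether the numbers pair the libraries, because deviations from a mean of 3 libraries are tied to each other. The labels do not say so either, and the main test left the numbers out. The replicate block called 11 genes and no member. With a library left out, median log2 fold changes ran from -0.49 to 0.10 for core alpha, -0.47 to 0.075 for core beta, -0.12 to 0.07 for cap and -0.13 to 0.054 for activator genes; the cause was not tested. Log2 fold changes ran from -0.53 to 0.17 for Psmb5, -0.29 to 0.017 for Psmb6, -0.66 to 0.18 for Psmb7, -0.15 to 0.12 for Psme1, -0.46 to 0.054 for Psme2, -0.13 to 0.044 for Psme3, -0.53 to 0.035 for Psma2 and -0.60 to 0.22 for Psma3. The sign held but the size moved for Psmc6 (-0.53 to -0.011), Psmd10 (-0.47 to -0.098), Psmd8 (-0.27 to -0.064), Psmc5 (0.026 to 0.15), Psmb11 (-1.65 to -0.30), Psmc3ip (-0.43 to -0.20) and Psme4 (-0.18 to -0.11). Psme1 was also negative with limma voom (-0.040) and without both libraries numbered 3 (-0.058), where Psmc5 was at -0.012. The difference in log2 ratio, Il1rnKO minus WT, ran from -0.56 to 0.022 for Psmb5 to Psmb8, -0.23 to 0.24 for Psmb6 to Psmb9 and -0.39 to -0.12 for Psmb7 to Psmb10. The log2 ratio of the summed cap share, Il1rnKO over WT, was 0.06 with plain totals and -0.033 with TMM-scaled totals. The highest alpha gene exceeded the lowest 3.30-fold per exon length and 3.91-fold per transcript length, and the beta genes 3.87-fold and 6.36-fold. Precision was lowest in the core, where the 95% interval lay within a 1.5-fold change for 1 of 7 alpha and 3 of 8 beta genes, against 16 of 20 cap genes.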

Other observations

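Some genes outside the members but close to them in function, chosen after their values were seen, had the same high libraries as the core. Others in the same lists did not. Both libraries numbered 3 were the highest of their group for 26.7% of the 8634 tested genes of at least 10 CPM. Pomp, the chaperone that matures the core, was at 59.5, 54.1 and 118 CPM in Il1rnKO 1, 2 and 3 and at 66.2, 72.7 and 123 CPM in WT 1, 2 and 3. Sem1, the smallest lid subunit, was at 49.5, 39.7 and 99.6 CPM in Il1rnKO 1, 2 and 3 and at 62.2, 72.1 and 91.0 CPM in WT 1, 2 and 3. Rps27a, which encodes ubiquitin fused to a ribosomal protein, was at 572, 553 and 1359 CPM in Il1rnKO 1, 2 and 3 and at 816, 988 and 1428 CPM in WT 1, 2 and 3. In contrast, Adrm1 and Uba1 were lowest in the library numbered 3 of each group. Adrm1 was at 78.7, 78.8 and 67.3 CPM in Il1rnKO 1, 2 and 3 and at 78.0, 68.7 and 65.3 CPM in WT 1, 2 and 3.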
